A study of Mus musculus with 9 samples.

Results

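A set of 10 genes of the pigment cell was followed in the epidermis of the mouse ear, namely Mitf, Sox10, Kit, Tyr, Tyrp1, Dct, Pmel, Mlana, Slc45a2 and Oca2. These 10 genes were picked by symbol from the 52550 genes of the epidermal count table. Total RNA of ear epidermal sheets was sequenced in 9 libraries, with 3 libraries in each of 3 groups. All mice were wild type C57BL/6 males of 8 weeks (C57BL/6J in the study's methods), and all received 200 μl by gavage for 10 days and a topical application to the ear on 5 of those days. The labels and methods give gavage once daily, but other passages of the study give it more often, so the daily amount of XYF is uncertain. VAS+H2O mice, the controls, received Vaseline and water. IMQ+H2O mice received imiquimod cream, an agonist of Toll-like receptor 7 that elicits psoriasis-like skin inflammation, and water. IMQ+XYF mice received imiquimod cream and Xiao-Yin-Fang (XYF), a decoction of medicinal herbs, at 23.3 mg/g. The sources do not say whether the libraries of a group came from separate mice or separate pools of mice, so p-values measure the spread between libraries, which may be in part technical.

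Melanocytes are the neural crest-derived cells that make melanin in a specialised organelle, the melanosome, and pass it to keratinocytes. The transcription factor MITF governs their survival and the genes of the pigment enzymes, SOX10 acts upstream of MITF, and the receptor KIT conveys the signal of stem cell factor from the surrounding keratinocytes and fibroblasts. Tyrosinase carries out the rate-limiting step of melanin synthesis, TYRP1 and DCT act on later intermediates, PMEL forms the fibrils on which melanin is laid down, and SLC45A2 and OCA2 are transporters of the melanosome membrane.

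Library totals ran from 30298275 to 64771160 counts, and 3 counts, taken as the floor, equalled 0.0471 to 0.104 CPM (counts per 1000000 counts of the library, with totals scaled by TMM factors of 0.956 to 1.06). Mitochondrial genes took 2.56% to 4.12% of the counts. Keratinocyte markers, led by Krt10, Krt5 and Krt14, summed to 45575 to 68204 CPM, whereas the 10 pigment-cell genes together summed to 25.4 to 52.4 CPM. RNA of genes typical of cartilage and fibroblasts was present, and its sums were lowest in IMQ+H2O. Whether this reflects the tissue in the sheets or the expression of these genes was not tested. The summed CPM of 12 cartilage genes was 323 to 710 in VAS+H2O, 62.0 to 118 in IMQ+H2O and 201 to 323 under IMQ+XYF, and that of 12 fibroblast genes was 178 to 945, 92.5 to 102 and 160 to 347. Matn1 was the cartilage gene at 0 in every library, and no fibroblast gene was at 0 in any library. VAS+H2O replicate 2 stood apart with the highest sums of both lists.

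Of the 10 genes, 8 passed the filter on low counts and were tested, and Slc45a2 and Oca2 did not. With genes ordered by their mean level per kilobase of exon over the 9 libraries, Pmel stood first at 3.25 CPM per kb, followed by Tyrp1 at 2.11, Dct at 1.49, Mitf at 1.29, Mlana at 0.598, Kit at 0.408, Sox10 at 0.272 and Tyr at 0.172. Oca2 at 0.0257 and Slc45a2 at 0.0162 CPM per kb came last. Pmel was above Tyrp1, Kit above Sox10, and Tyr above Oca2 in all 9 libraries, so these steps of the order held in each library. Dct was above Mitf in only 5 of 9 libraries and Oca2 above Slc45a2 in 5 of 9, so those neighbours were not separated beyond the spread of the libraries. The other steps held in 7 or 8 libraries. The lengths were those of all annotated exons merged, which may differ from the transcripts expressed, and the order depends on them. By CPM alone Dct was highest at 8.80, followed by Mitf at 8.01 and Pmel at 7.46.

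**Figure D1:**
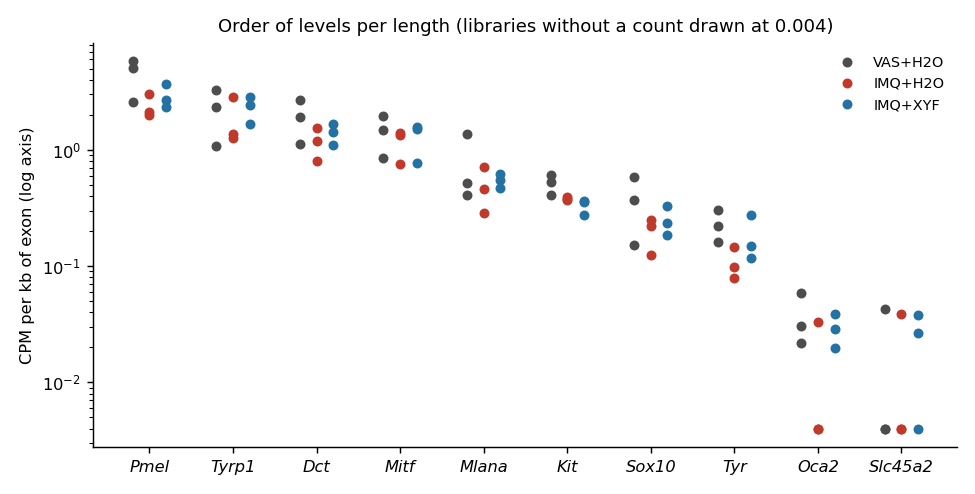
Level of each of the 10 pigment-cell genes in each of the 9 libraries, as CPM per kb of merged exon on a log axis, coloured by group, with genes in order of their mean. Pmel has the highest mean at 3.25 CPM per kb and Slc45a2 the lowest at 0.0162, and points drawn at the bottom line are libraries without a count.

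Among the regulators, Mitf (ENSMUSG00000035158, chr6:97807052-98021349, forward strand, GRCm38) had 5.31, 12.2 and 9.09 CPM in the 3 VAS+H2O libraries, 8.64, 8.32 and 4.65 in IMQ+H2O and 9.76, 4.78 and 9.29 under IMQ+XYF. High and low libraries occurred in every group, and the groups overlapped. Sox10 (ENSMUSG00000033006, chr15:79154908-79165240, reverse strand) had 1.78, 1.12 and 0.459 CPM in VAS+H2O, 0.380, 0.676 and 0.764 in IMQ+H2O and 1.01, 0.709 and 0.570 under IMQ+XYF. Its highest library was VAS+H2O replicate 1, and VAS+H2O replicate 3 lay among the treated libraries. Kit (ENSMUSG00000005672, chr5:75574916-75656722, forward strand) had 5.40, 4.67 and 3.61 CPM in VAS+H2O, 3.52, 3.33 and 3.33 in IMQ+H2O and 3.24, 2.47 and 3.16 under IMQ+XYF. The 3 groups of Kit did not overlap: every VAS+H2O library was above every IMQ+H2O library, and every IMQ+H2O library was above every IMQ+XYF library.

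Tyr (ENSMUSG00000004651, chr7:87424771-87493512, reverse strand), Tyrp1 (ENSMUSG00000005994, chr4:80834123-80851719, forward strand) and Dct (ENSMUSG00000022129, chr14:118012790-118052244, reverse strand) encode the melanin-making enzymes. The 250 bases before the RefSeq start of each are shown from the GRCm38.p6 table because all 3 hold TCATGTG, the core of the M-box that MITF is known to bind, which was searched on both strands and is given in capitals.
Tyr, chr7:87493513-87493762, reverse strand: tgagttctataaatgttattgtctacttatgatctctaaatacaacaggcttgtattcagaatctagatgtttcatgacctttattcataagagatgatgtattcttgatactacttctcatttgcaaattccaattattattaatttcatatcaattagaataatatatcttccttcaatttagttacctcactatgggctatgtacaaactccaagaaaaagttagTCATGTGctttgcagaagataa
Tyrp1, chr4:80833963-80834212, forward strand: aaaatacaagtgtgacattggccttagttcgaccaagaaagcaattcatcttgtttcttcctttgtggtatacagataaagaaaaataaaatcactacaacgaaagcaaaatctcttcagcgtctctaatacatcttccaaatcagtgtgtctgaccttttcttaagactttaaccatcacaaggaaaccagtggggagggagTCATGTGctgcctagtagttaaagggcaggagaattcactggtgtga
Dct, chr14:118052247-118052496, reverse strand: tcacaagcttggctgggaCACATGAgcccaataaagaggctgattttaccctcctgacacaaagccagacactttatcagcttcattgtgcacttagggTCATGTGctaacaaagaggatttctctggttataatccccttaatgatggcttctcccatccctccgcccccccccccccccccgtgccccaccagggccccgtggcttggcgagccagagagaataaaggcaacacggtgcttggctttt
The motif began 22 bases before the start in Tyr, 47 in Tyrp1, and 232 and 151 in Dct, where the more distant copy lies on the opposite strand and reads CACATGA. RefSeq windows were matched for 6 of the 10 genes. The motif was found in 3 of these 6, and in 3.25% of all 32851 windows, or 3.72% of 27025 genes. The windows of Kit, Mitf and Oca2 held no copy of these letters, and Sox10, Pmel, Mlana and Slc45a2 were not matched. A match is a description of the sequence and not a measured binding site.

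Tyr had 2.16, 1.58 and 1.15 CPM in VAS+H2O, 0.691, 1.04 and 0.556 in IMQ+H2O and 1.05, 0.833 and 1.94 under IMQ+XYF. All 3 IMQ+H2O libraries lay below all 3 VAS+H2O libraries, and IMQ+XYF overlapped both groups. Tyrp1 had 6.60, 9.17 and 3.04 CPM in VAS+H2O, 3.56, 8.01 and 3.84 in IMQ+H2O and 6.85, 4.69 and 7.98 under IMQ+XYF, so that its lowest library was a control. Dct had 15.7, 11.4 and 6.65 CPM in VAS+H2O, 4.73, 9.02 and 7.02 in IMQ+H2O and 6.44, 8.42 and 9.80 under IMQ+XYF. For Dct the controls held the highest libraries, but VAS+H2O replicate 3 fell within the range of IMQ+H2O.

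Pmel (ENSMUSG00000025359, chr10:128704195-128720238, forward strand), which encodes the fibril protein, had 13.3, 11.6 and 5.97 CPM in VAS+H2O, 4.53, 6.92 and 4.84 in IMQ+H2O and 6.18, 5.37 and 8.47 under IMQ+XYF. VAS+H2O replicate 3 again lay below 1 IMQ+H2O library, and the other 2 controls were above all treated libraries. Pmel shares 105 exonic bases with Dgka and 34 with Cdk2 on the opposite strand, and it is not settled whether the libraries and the counting kept strand. Mlana (ENSMUSG00000024806, chr19:29697824-29708634, forward strand), which encodes a melanosome protein that interacts with PMEL, had 1.44, 0.546 and 0.430 CPM in VAS+H2O, 0.484, 0.754 and 0.301 in IMQ+H2O and 0.581, 0.493 and 0.656 under IMQ+XYF. Only VAS+H2O replicate 1 stood above the rest.

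Both transporters were at the edge of detection. Slc45a2 (ENSMUSG00000022243, chr15:11000721-11029233, forward strand) had 6, 0 and 0 counts in VAS+H2O, 0, 0 and 5 in IMQ+H2O and 5, 0 and 4 under IMQ+XYF. Oca2 (ENSMUSG00000030450, chr7:56239760-56536518, forward strand) had 11, 4 and 3 counts in VAS+H2O, 0, 5 and 0 in IMQ+H2O and 5, 5 and 4 under IMQ+XYF. Over the summed libraries of a group, Oca2 was at 0.163 CPM in VAS+H2O (95% Poisson interval 0.0966 to 0.258), 0.0440 in IMQ+H2O (0.0143 to 0.103) and 0.105 under IMQ+XYF (0.0576 to 0.177), and Slc45a2 was at 0.0543, 0.0440 and 0.0677 CPM. These summed levels used the library totals without TMM factors, and the intervals cover counting error only. The Oca2 intervals of VAS+H2O and IMQ+H2O overlapped, and 11 of its 18 VAS+H2O counts came from replicate 1. The Slc45a2 levels were not separable at this depth.

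**Figure D2:**
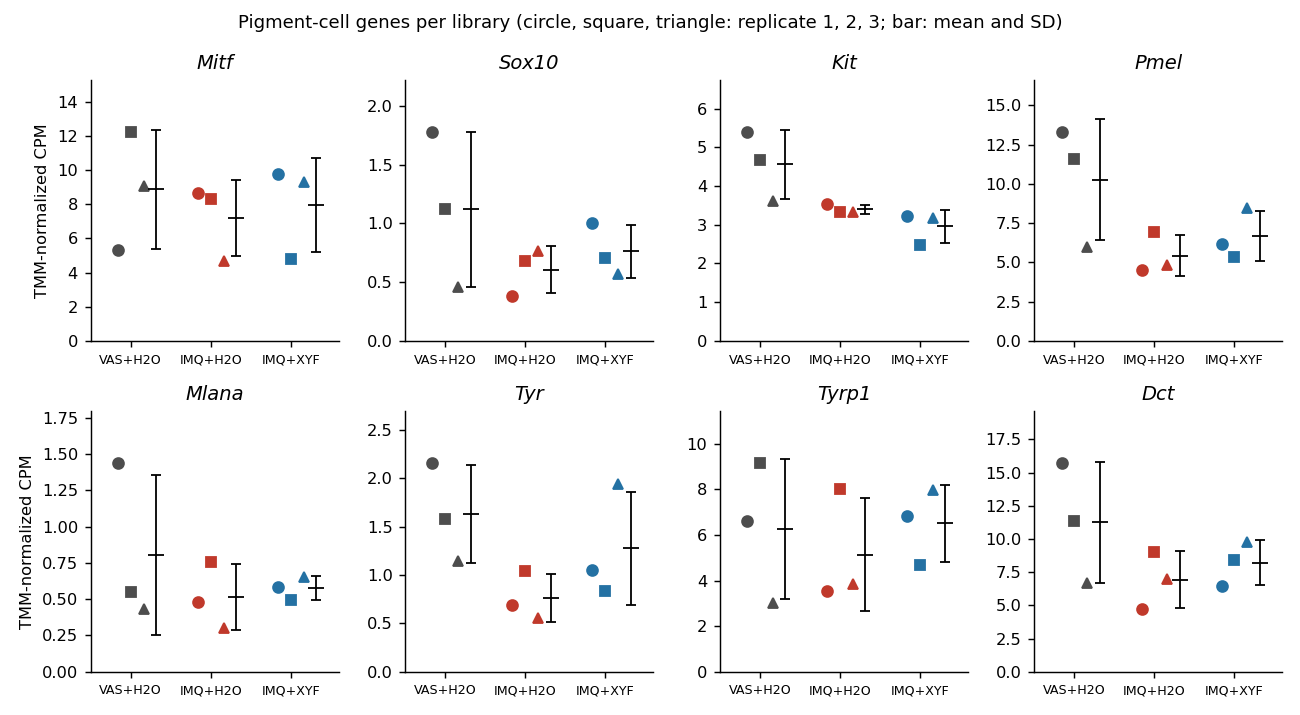
TMM-normalized CPM of the 8 tested genes in each of the 9 libraries, with the mean and SD of each group of 3 as bars and marker shapes for replicate number. Kit is the gene whose 3 groups do not overlap, Tyr does not overlap between VAS+H2O and IMQ+H2O, and Dct, Pmel and Sox10 show a wide spread among the controls.

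To ask how imiquimod altered these genes, IMQ+H2O was compared with VAS+H2O by edgeR's quasi-likelihood test over 18009 genes, and genes were called where the adjusted p did not exceed 0.05 and the log2 fold change was 1 or more in either direction. All 8 tested pigment-cell genes had lower mean levels under imiquimod, but 0 of 8 were called, either higher (3.64% of all genes) or lower (4.04%). The median log2 fold change was -0.70, against -0.03 over all genes tested. As given below, most of these genes varied together between libraries. In each comparison their shared direction and median are therefore not independent values. Because the tissue was sequenced in bulk, fewer melanocytes and less RNA per melanocyte cannot be told apart. DESeq2 also called 0 of 8. An unadjusted p under 0.05 in edgeR was found for 2 of 8 (Tyr and Pmel), and for 6823 of all 18009 genes.

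Tyr showed the largest difference of the 8. Its level was 1.63 ± 0.507 CPM in VAS+H2O and 0.762 ± 0.250 in IMQ+H2O (SD, n = 3 each), a log2 fold change of -1.11 (SE 0.36, 95% interval -1.97 to -0.25, edgeR adjusted p = 0.0699). Pmel was at 10.3 ± 3.84 and 5.43 ± 1.30 CPM, a log2 fold change of -0.94 (SE 0.33, edgeR adjusted p = 0.0831). Its call depended on VAS+H2O replicate 3: without that library Pmel was called, with a log2 fold change of -1.18 and an edgeR adjusted p of 0.0299. Dct was at 11.2 ± 4.54 and 6.92 ± 2.15 CPM, and its log2 fold change of -0.71 had a 95% interval of -1.56 to 0.13. Sox10, at 1.12 ± 0.659 and 0.607 ± 0.201 CPM, gave -0.89 with an interval of -2.15 to 0.37.

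Kit was at 4.56 ± 0.896 and 3.40 ± 0.112 CPM, a log2 fold change of -0.44 (SE 0.20, edgeR adjusted p = 0.156). Mitf, with -0.32, and Tyrp1, with -0.30, had the smallest differences, and their intervals reached from -1.17 to 0.54 and from -1.42 to 0.81. Mlana gave -0.68 (-2.04 to 0.68). Groups did not overlap for 2 of 8 genes, Kit and Tyr, both lower under imiquimod, which is close to the 21.6% of all genes tested that were lower without overlap. The summed cartilage and fibroblast genes were lower under imiquimod as well, with 9 of 10 tested cartilage genes (highest Acan, Chad and Col11a2) and 4 of 11 fibroblast genes (highest Dcn, Col6a1 and Col1a2) called lower, and 1 fibroblast gene called higher. With a score of those genes as a covariate 0 of 8 pigment-cell genes were called. The log2 fold change was then -1.29 for Tyr, -0.91 for Dct and -0.82 for Pmel, but 0.77 for Mitf and 0.52 for Tyrp1. The sums of those cartilage and fibroblast genes did not overlap between the groups, so this fit cannot separate them from treatment. It called no gene over the whole table, so its lack of calls among the pigment-cell genes is uninformative. Of the 10 keratinocyte genes 1 was called higher and 1 lower. Of 8 Langerhans cell and macrophage genes edgeR called 0, with 2 at an unadjusted p under 0.05, and DESeq2 called 1. Krt14 (log2 fold change 0.72, edgeR adjusted p = 0.0227) and Cd68 (0.60, 0.0425) missed only the fold threshold. Both were higher under imiquimod without overlap. The sum of the Langerhans cell and macrophage genes, led by Cd74, H2-Ab1 and Epcam, was 489 to 619 CPM over the 9 libraries.

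Mast cells also depend on KIT and MITF, and the genes of their granule proteases were at or near the floor: Cpa3 reached at most 0.233 CPM, Mcpt4 0.334, Cma1 0.347 and Tpsb2 0.0943. The IgE receptor genes Ms4a2 and Fcer1a were at 0 in all 9 libraries. Above the floor in every library were the mast cell receptor gene Mrgprb2, at 0.587 to 3.01 CPM, and the transcription factor gene Gata2, at 0.276 to 1.78 CPM. Mrgprb2 was lower without overlap under imiquimod, like Kit and Tyr (log2 fold change -1.21, edgeR adjusted p = 0.0892), and its part in the Kit and Mitf values was not tested. The summed mast list ran from 20.4 to 29.7 CPM in VAS+H2O, 22.2 to 130.5 in IMQ+H2O and 21.8 to 78.9 under IMQ+XYF, and was led by Hpgds, Hdc and Mrgprb2. Of 5 tested mast genes 1, Hdc, was called higher under imiquimod, at 23.2 ± 37.3 CPM in IMQ+H2O, an SD above the mean. The other tested mast genes went both ways and were not called, with log2 fold changes of -1.38 for Gata2, -1.21 for Mrgprb2, 0.53 for Mcpt4 and 0.86 for Hpgds. Schwann cells share SOX10 with melanocytes. Their list summed to 212 to 234 CPM in VAS+H2O, 145 to 185 in IMQ+H2O and 162 to 180 under IMQ+XYF, with 3 of 9 tested genes called lower under imiquimod. It was led by L1cam, Mbp and Ngfr, while Cdh19 reached at most 1.90 CPM and Pmp2 and Gfra3 were at 0.

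Follicular melanocytes sit in hair bulbs. The 21 hair follicle genes in the table summed to 55.6 to 72.8 CPM in VAS+H2O, 43.7 to 49.9 in IMQ+H2O and 39.2 to 49.96 under IMQ+XYF, with Tchh, Msx2 and Lhx2 highest. Between 3 and 13 of the 21 were at 0 in a library, and Krt72, Krt34 and Shh were at 0 in all. Under imiquimod edgeR called 0 of 8 tested hair follicle genes, with 2 (Msx2 and Lhx2) at an unadjusted p under 0.05, and DESeq2 called 0. Msx2 was lower without overlap and missed only the fold threshold (log2 fold change -0.69, edgeR adjusted p = 0.0158). Lhx2 gave -0.70 (edgeR adjusted p = 0.102). The follicle sum was higher in every control library than in every treated library, and its part in the pigment-cell levels was not tested.

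The effect of XYF was examined by comparing IMQ+XYF with IMQ+H2O, a comparison that shares the IMQ+H2O libraries with the previous one. None of the 8 pigment-cell genes was called in edgeR, DESeq2 also called 0 of 8, and 0 of 8 had an unadjusted p under 0.05. Over all 17793 genes tested, 0.0281% were called, and 966 had an unadjusted p under 0.05 in edgeR. Of the 8 fold changes, 7 were positive, with a median of 0.27 against 0.00 over all genes tested, and the edgeR adjusted p was 1 for each gene. The intervals left room for changes in either direction.

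Tyr gave the largest difference, from 0.762 ± 0.250 CPM in IMQ+H2O to 1.27 ± 0.585 in IMQ+XYF (SD, n = 3 each), a log2 fold change of 0.74 with a 95% interval of -0.24 to 1.72. Its highest IMQ+XYF library, at 1.94 CPM, was replicate 3, and the other 2 lay at 1.05 and 0.833. Tyrp1 gave 0.35 (-0.50 to 1.20), Sox10 0.33 (-0.56 to 1.23), Pmel 0.30 (-0.27 to 0.87), Dct 0.25 (-0.38 to 0.88), Mlana 0.18 (-0.77 to 1.13) and Mitf 0.15 (-0.65 to 0.96) on the log2 scale. Kit was the gene with a negative value, -0.19 (-0.60 to 0.22), at 3.40 ± 0.112 CPM in IMQ+H2O and 2.96 ± 0.425 in IMQ+XYF. It was also the 1 of 8 genes whose groups did not overlap in the lower direction, as did 4.67% of all genes tested. Among the few genes called in this comparison were 2 of 10 tested cartilage genes, both higher with XYF, and DESeq2 called 9 cartilage and 6 fibroblast genes. With the cartilage and fibroblast score as a covariate the log2 fold changes were 2.16 for Tyr, 1.43 for Dct, 1.20 for Pmel and 1.14 for Tyrp1, and 0 of 8 genes were called. The sums of the scored genes did not overlap between IMQ+H2O and IMQ+XYF, so these values are not an XYF effect separated from that score. The fit called no gene over the whole table, so its lack of calls is uninformative.

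IMQ+XYF was also compared with VAS+H2O, a comparison that shares libraries with both others. Here too edgeR and DESeq2 called 0 of 8 pigment-cell genes, while 4.58% of all 17954 genes tested were called higher and 3.05% lower. Over all genes tested, 7418 had an unadjusted p under 0.05 in edgeR, and so did 1 of the 8. That gene was Kit, with a log2 fold change of -0.62 (SE 0.21, 95% interval -1.13 to -0.12, edgeR adjusted p = 0.0703). Kit was the 1 gene of 8 that was lower without overlap, against 22.4% of all genes tested. Pmel gave -0.63, Sox10 -0.55, Mlana -0.50, Dct -0.46, Tyr -0.36, Mitf -0.15 and Tyrp1 0.06, with intervals that all included 0. The median of the 8 was -0.48, against -0.04 over all genes tested.

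**Figure D3:**
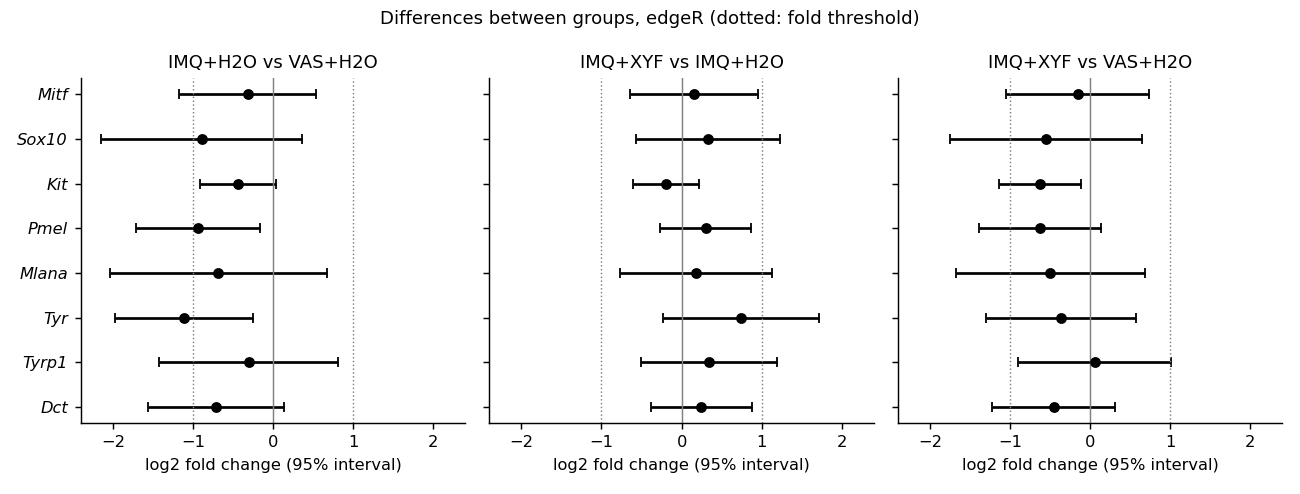
Log2 fold change with 95% interval of the 8 tested genes in the 3 comparisons (edgeR), with dotted lines at the fold threshold of 1. In IMQ+H2O against VAS+H2O all 8 points lie below 0, in IMQ+XYF against IMQ+H2O 7 of 8 lie above 0, and no gene was called in any panel.

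The melanin-making genes varied together from library to library. Over the 9 libraries, the 10 pairs among Dct, Tyrp1, Tyr, Pmel and Mlana had Pearson correlations of log2 CPM between 0.56 and 0.91, with a median of 0.74, and taking deviations from the group means left a median of 0.74. The ratio of Dct to Pmel CPM stayed between 0.982 and 1.57, a 1.60-fold range, although each of these genes varied 3.32-fold and 2.94-fold by itself. Tyrp1 to Dct varied 2.54-fold and Tyr to Pmel 1.99-fold. Mitf did not follow this pattern. Its 7 pairs with the other tested genes had correlations of -0.20 to 0.38, with a median of 0.21, and the ratio of Mitf to Dct varied 5.41-fold. These values describe 9 libraries from 3 treatment groups of unequal depth, and carry no test.

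**Figure D4:**
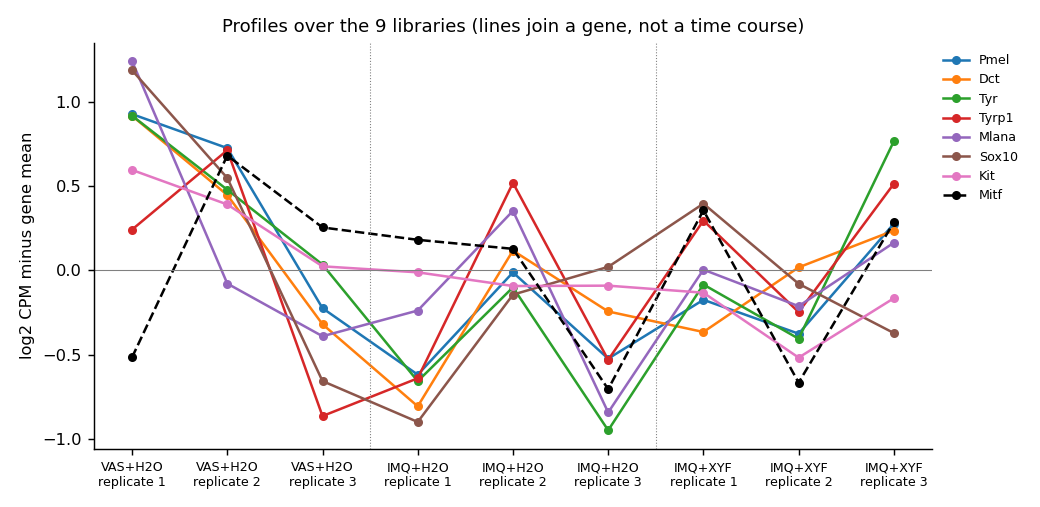
Log2 CPM of the 8 tested genes in each of the 9 libraries, relative to the mean of each gene, with 1 line per gene and Mitf dashed. Most genes are high in VAS+H2O replicate 1 and low in IMQ+H2O replicates 1 and 3, whereas Mitf is low in VAS+H2O replicate 1.

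To find genes of like pattern, each of 14782 genes with a mean of at least 1 CPM was correlated with the mean log2 CPM of Dct, Tyrp1, Tyr, Pmel and Mlana over the 9 libraries. With the pigment-cell genes themselves left out, the 10 closest were Iah1 (r = 0.95), Pcbp4 (0.94), Pthlh (0.94), Gm42418 (0.93), Lime1 (0.91), 2500004C02Rik (0.91), Slc23a1 (0.91), 6330403L08Rik (0.90), Cav2 (0.90) and Lhx2 (0.90). Within groups their correlations were 0.86 to 0.95. Tyrp1, although itself part of that mean, had r = 0.80 and rank 115 among the 14782 genes. Many genes outside the pigment-cell set thus followed the mean more closely than Tyrp1 did. Pthlh, which encodes parathyroid hormone-related protein, had 11.5, 8.44 and 4.59 CPM in VAS+H2O, 4.42, 7.70 and 5.35 in IMQ+H2O and 6.87, 6.29 and 7.15 under IMQ+XYF. Lhx2, a transcription factor of hair follicle stem cells that is also in the follicle list, had 17.8, 12.4 and 8.98 CPM in VAS+H2O, 6.81, 9.41 and 8.15 in IMQ+H2O and 7.26, 7.90 and 11.7 under IMQ+XYF. Gm42418, with a mean of 219 CPM, overlaps an annotated ribosomal RNA gene on the opposite strand over 99.5% of its exonic bases.

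Genes of the wider pigment machinery were taken from 3 lists. Of 32 genes of melanosome formation, transport and ion balance, 30 were tested. Under imiquimod 1 was called higher and 0 lower (median log2 fold change -0.09 against -0.03 over all genes tested). Genes of these lists that met the adjusted p but not the fold threshold are not counted as called. The gene called higher was Slc7a11, the cystine transporter that supplies pheomelanin synthesis and glutathione. It stood at 11.1, 11.7 and 12.7 CPM in VAS+H2O, 148, 90.6 and 148 in IMQ+H2O and 107, 110 and 117 under IMQ+XYF. Its log2 fold change was 3.43 in IMQ+H2O against VAS+H2O (SE 0.21, edgeR adjusted p = 0.00171) and 3.23 in IMQ+XYF against VAS+H2O (edgeR adjusted p = 5.67e-05). In the latter comparison, too, 1 of 30 was called higher and 0 lower. Slc7a11 is expressed by many cell types, and keratinocytes make up most of this tissue. Of the melanosome genes largely restricted to pigment cells, which were chosen after their values were seen, Slc24a5 was at 0.848 ± 0.437, 0.349 ± 0.125 and 0.725 ± 0.234 CPM in the controls, under imiquimod and with XYF, with a log2 fold change of -1.28 under imiquimod (edgeR adjusted p = 0.116). Trpm1 was at 2.57 ± 0.607, 2.30 ± 0.234 and 2.34 ± 0.293 CPM. Between IMQ+XYF and IMQ+H2O, edgeR and DESeq2 each called 0 melanosome genes, and 2 of 30 had an unadjusted p under 0.05. The list had 2 calls in place of 1 under imiquimod without IMQ+H2O replicate 2, and with XYF without VAS+H2O replicate 2.

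Of 19 regulators and receptors of melanocytes, 16 were tested, and 0 were called higher and 2 lower under imiquimod (median log2 fold change -0.18). Tfap2b, a transcription factor of the AP-2 family, had 155, 144 and 140 CPM in VAS+H2O, 68.8, 83.5 and 65.3 in IMQ+H2O and 67.9, 66.4 and 72.4 under IMQ+XYF, with no overlap between controls and treated libraries. Its log2 fold change was -1.03 (SE 0.11, edgeR adjusted p = 0.00575) under imiquimod alone and -1.09 (edgeR adjusted p = 0.000436) with XYF. The first of these lay close to the fold threshold, and the call was lost without VAS+H2O replicate 1, without IMQ+H2O replicate 1 and without IMQ+H2O replicate 3, and also with no low-count filter and with the cartilage and fibroblast score as a covariate. Lef1, an effector of Wnt signalling, was at 3.39 ± 1.41 CPM in VAS+H2O and 1.05 ± 0.333 in IMQ+H2O, a log2 fold change of -1.71 (SE 0.39, edgeR adjusted p = 0.0262). Lef1 lost its call without VAS+H2O replicate 2, its highest library at 5.01 CPM, without IMQ+H2O replicate 1 or 3, and with the covariate. The covariate fit under imiquimod called no gene over the whole table. The receptors Mc1r, at 0.383 ± 0.221, 0.162 ± 0.223 and 0.387 ± 0.0827 CPM, and Ednrb, at 0.807 ± 0.406, 0.601 ± 0.395 and 0.651 ± 0.310 CPM, were named after their values were seen and were not called. In IMQ+XYF against VAS+H2O edgeR called 0 of 16 higher and 1, Tfap2b, lower, while DESeq2 called 2, Tfap2b and Lef1. In edgeR Lef1 gave -1.03 there (adjusted p = 0.0659) and was lower without overlap. In IMQ+XYF against IMQ+H2O edgeR called 0 of 16, with 1 at an unadjusted p under 0.05 and 0 called by DESeq2.

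Keratinocytes and fibroblasts signal to melanocytes by secreted factors. Of the 20 genes of this list in the table, 15 were tested under imiquimod, and 2 were called higher and 4 lower. Il1a, an epidermal cytokine, rose from 5.76 ± 0.571 CPM in VAS+H2O to 25.8 ± 7.64 in IMQ+H2O, a log2 fold change of 2.15 (SE 0.23, edgeR adjusted p = 0.00575). Edn2, an endothelin ligand, fell from 4.99 ± 0.638 to 1.16 ± 0.555 CPM, with a log2 fold change of -2.14 (SE 0.36, edgeR adjusted p = 0.0122). Fgf2, a melanocyte mitogen, fell from 12.0 ± 5.43 to 0.657 ± 0.313 CPM, with a log2 fold change of -4.22 (SE 0.52, edgeR adjusted p = 0.00698), although 9.44% of its exonic bases are shared with Nudt6 on the opposite strand. Corin, a dermal papilla protease that affects coat colour, fell from 65.0 ± 25.5 to 16.2 ± 6.38 CPM (log2 fold change -2.03, edgeR adjusted p = 0.0156). Bmp4, a growth factor made by dermal cells, fell from 14.6 ± 3.73 to 6.87 ± 1.23 CPM (log2 fold change -1.10, edgeR adjusted p = 0.0200), a call lost without VAS+H2O replicate 2 or 3, without IMQ+H2O replicate 2 or 3, and with the replicate number as a block. All 6 calls were absent with the cartilage and fibroblast score as a covariate, a fit that left 0 genes called over the whole table.

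In IMQ+XYF against VAS+H2O, edgeR called 4 of 15 tested factors higher and 2 lower. DESeq2 called 8, adding Tnf and also Csf2, a gene that edgeR did not test. Without VAS+H2O replicate 3, edgeR called 3 in all, when Bmp4, Il1b and Ptgs2 lost their calls. Il1a gave a log2 fold change of 2.33 (edgeR adjusted p = 0.000299), Edn2 -2.69 (0.000878) and Bmp4 -1.10 (0.00915). Il1b, at 3.79 (0.0164), and Ptgs2, the inducible prostaglandin synthase, at 1.55 (0.0474), also rose. In IMQ+H2O against VAS+H2O, DESeq2 called Il1b but edgeR called neither. The edgeR log2 fold changes there were 4.11 for Il1b (adjusted p = 0.0591) and 1.91 for Ptgs2 (0.0748), each higher without overlap. Both were high in single libraries: Il1b had 7.39, 14.4 and 193 CPM in IMQ+H2O and 119, 11.8 and 39.5 in IMQ+XYF, against 3.49, 5.86 and 3.04 in VAS+H2O. The Il1b call was lost without VAS+H2O replicate 1 or 3, and the Ptgs2 call without any 1 of the 3 VAS+H2O libraries or without IMQ+XYF replicate 1 or 3. Both calls were also lost with all 9 libraries in 1 fit and with the replicate number as a block, and that of Ptgs2 with no low-count filter and with the covariate. Kitl, the ligand of KIT, was named after its values were seen. It was at 20.3 ± 1.53 CPM in VAS+H2O, 16.1 ± 2.15 in IMQ+H2O and 16.9 ± 0.879 under IMQ+XYF, with log2 fold changes of -0.35 under imiquimod (edgeR adjusted p = 0.105) and -0.26 with XYF (0.0872), neither of which was called. Between IMQ+XYF and IMQ+H2O, edgeR called 0 of 16 tested factors, with 2 (Corin and Fgf2) at an unadjusted p under 0.05, and DESeq2 called 1, Corin. Corin was at 40.02 ± 7.34 CPM in IMQ+XYF, against 16.2 ± 6.38 in IMQ+H2O, a log2 fold change of 1.32 (edgeR adjusted p = 0.465), and its groups did not overlap.

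**Figure D5:**
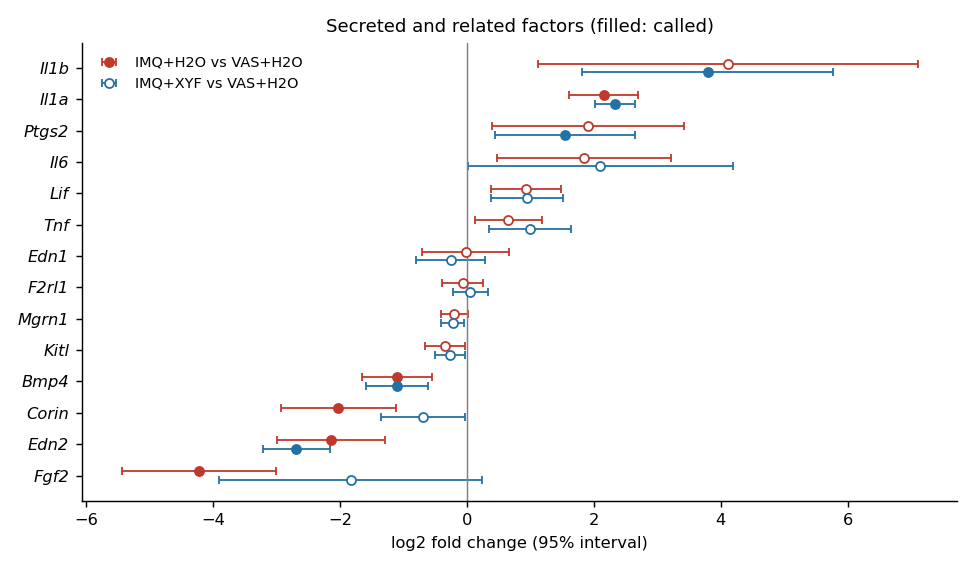
Log2 fold change with 95% interval of tested secreted and related factors in IMQ+H2O and in IMQ+XYF, each against VAS+H2O (edgeR), with filled points for called genes. Il1a lies above 2 and Edn2 below -2 in both comparisons, and Kitl lies at -0.35 and -0.26 with open points.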

How the data were processed

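The 9 epidermal libraries were grouped by their labels; dermal samples were not analysed here. The submitters' processing notes name FastQC, STAR 2.5, Cuffnorm, DESeq 1.22.1 and the genome GRCm38, and the study's methods name the Ensembl annotation, StringTie and DESeq2. The labels call the TruSeq libraries strand-specific, while the study's methods name a TruSeq RNA kit that does not mark strand, so strandedness is not settled. The authors deposited whole numbers per gene and library, without normalization, which were treated as raw counts. The counting tool and strand setting are not given in the sources used here, nor whether the values are rounded estimates. The study's methods give 2 mice for the ear sheets, without saying whether that is per library.

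Each comparison was fitted on its 6 libraries with R 4.3.3 and edgeR 4.0.16 (TMM, filterByExpr, glmQLFit, glmQLFTest), with Benjamini-Hochberg adjustment over all genes tested. SE and 95% intervals were derived from the test statistic. The thresholds were 0.05 for the adjusted p and 1 for the size of the log2 fold change. With 3 against 3 libraries an exact permutation test cannot go below p = 0.1 and was not used. Log2 CPM used a prior count of 2. DESeq2 1.42.0 was an alternative, and the fits were tested on simulated data. Positions and lengths came from GENCODE M21 and sequences from RefSeq, both on GRCm38.

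All 10 genes are named. From each list up to 5 called genes per direction and comparison are named by adjusted p, with some that DESeq2 alone called. Any other gene is said to be chosen after its values were seen. From each marker list the 3 genes of highest mean CPM are named, with defining markers at or near 0 and some further genes whose tests are given. The 10 genes of most similar pattern are named by r. The genes and lists were chosen with earlier results of these data known. Alternatives for the lists were added after seeing the data. Genes that these rules would add but that are absent from the text are not reported here, although they count in the list totals.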

Additional observations from a re-analysis of the deposited data

How the results depend on the processing

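The number of pigment-cell genes called was 0 in each of the 3 comparisons with DESeq2, RLE size factors, no low-count filter, at least 10 counts, all 9 libraries in 1 fit, the adjusted p alone, and the cartilage and fibroblast score as a covariate. Leaving out 1 library at a time gave 0 to 1 genes called in IMQ+H2O against VAS+H2O, the 1 being Pmel without VAS+H2O replicate 3, and 0 in the other 2 comparisons. The replicate block also gave 0 genes called in each comparison. The adjusted p alone was applied to the main fit only. Some other fits, by edgeR or DESeq2, met the adjusted p but not the fold threshold. The lowest adjusted p was 0.0257 for Pmel in IMQ+H2O against VAS+H2O. In IMQ+XYF against VAS+H2O it was 0.0396 for Pmel and 0.0409 for Kit. Same-numbered libraries deviated with correlations of -0.13 to 0.19 over genes, so the numbers were not taken to pair the libraries. Several fold changes that were not called changed sign, and the cause was not tested. With the covariate, the log2 fold change was 0.77 for Mitf and 0.52 for Tyrp1 in IMQ+H2O against VAS+H2O, -0.39 for Sox10 in IMQ+XYF against IMQ+H2O, and 0.12 for Mitf in IMQ+XYF against VAS+H2O. With 1 library left out, IMQ+H2O against VAS+H2O ranged from -1.04 to 0.049 for Mlana and -0.74 to 0.082 for Tyrp1. IMQ+XYF against IMQ+H2O ranged from -0.089 to 0.41 for Mitf and -0.11 to 0.58 for Mlana. IMQ+XYF against VAS+H2O ranged from -0.77 to 0.24 for Mlana, -0.42 to 0.15 for Mitf and -0.25 to 0.43 for Tyrp1. Over all genes, the calls in IMQ+H2O against VAS+H2O numbered 1383, and 3986 by the adjusted p alone, 0 with the covariate and 711 to 1314 with 1 library left out. In IMQ+XYF against IMQ+H2O they numbered 5, and 129 with DESeq2, 1 with all 9 libraries in 1 fit, and 0 with the replicate block or the covariate. In IMQ+XYF against VAS+H2O they numbered 1371, and 5152 by the adjusted p alone. Low counts limit Mlana, Sox10, Mc1r and both transporters, and 3 libraries per group leave intervals of about 1 or more on the log2 scale on either side for Mlana and Sox10.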
